A study of Mus musculus with 10 samples.

Results

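B cell, plasma cell and immunoglobulin genes were examined in 10 KPN1.1 tumors, 5 grown under liraglutide, a glucagon-like peptide-1 receptor agonist, and 5 under the PBS vehicle, in obese mice. The 9 genes were chosen by symbol: Ms4a1, Cd79a and Cd79b for B cells, Ighm, Ighg2b, Igkc and Iglc2 for immunoglobulin constant regions, and Jchain and Mzb1 for antibody-secreting cells. All 9 were among the 55401 gene identifiers of the deposited count table, 8 of the 9 had at least 1 count, and only 2, Ighm and Igkc, had enough counts to be among the 17464 genes kept for testing.

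The study asked how the drug altered gene expression in tumors grown in obese mice. Male C57BL/6J mice made obese on chow with 60% of calories from fat were injected in the flank, at 7 to 17 weeks of age, with KPN1.1 cells, a single mouse lung adenocarcinoma line that carries the NINJA neoantigen transgene. Once tumors were palpable, mice received liraglutide (0.2 μg per g body weight) or PBS by daily intraperitoneal injection, and the tumors were taken between days 19 and 22. RNA of 1 frozen fragment per tumor was sequenced after depletion of ribosomal RNA, so tumor cells and host cells were read together. Tumor numbers run from 1 to 5 in both groups.

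Total counts were 9927942 to 14480593 per tumor, so that 3 counts corresponded to 0.207 to 0.314 CPM (counts relative to the TMM-scaled library size). Epithelial genes were uneven, with Krt8 at 1630 to 3280 CPM and Epcam at 0.162 to 4.61 CPM. The lung lineage factor Nkx2-1 was present at 17.7 to 132 CPM. Of the surfactant genes, Sftpb was at 64.9 to 529 CPM, while the alveolar gene Sftpc was at 0 in at least 1 tumor and reached 5.93 CPM. No gene in the table passed an adjusted p under 0.05 between the groups with edgeR (1675 of 17464 had an unadjusted p under 0.05), nor did any with limma-voom. DESeq2 without independent filtering called 40 genes, with neither Ighm nor Igkc among them. With its default filtering it called 56, and gave neither of them an adjusted p.

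As background, a B cell carries an antibody molecule on its surface together with the signaling proteins CD79A and CD79B, and CD20, the product of Ms4a1, marks its membrane until it becomes a plasma cell. The antibody is built of heavy chains, whose constant region sets the class (Ighm for IgM, Ighg2b for IgG2b, Igha for IgA), and of kappa (Igkc) or lambda (Iglc) light chains, each joined to 1 of many variable (V) segments. Plasma cells make very large amounts of these transcripts together with Jchain, which links IgM and IgA into polymers, and Mzb1, an endoplasmic reticulum protein that assists antibody assembly.

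The sequences of the lambda constant genes are shown first, because Iglc2 was counted beside close relatives. These are the first 100 bases of the constant exon on the coding strand, from GENCODE M39 transcripts on GRCm39, with capitals at the 25 positions that were not the same in all 3 genes:
Iglc1: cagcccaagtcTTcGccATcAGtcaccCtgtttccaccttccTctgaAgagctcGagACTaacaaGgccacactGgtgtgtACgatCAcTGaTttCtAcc
Iglc2: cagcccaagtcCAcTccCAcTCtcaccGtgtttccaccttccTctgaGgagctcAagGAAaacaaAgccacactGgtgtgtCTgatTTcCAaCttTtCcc
Iglc3: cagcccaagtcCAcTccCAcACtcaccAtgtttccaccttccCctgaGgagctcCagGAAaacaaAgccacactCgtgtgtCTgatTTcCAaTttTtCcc
Iglc2 and Iglc3 differed at 6 of the 100 positions (94% identity), and Iglc1 differed from each of them at 23 (77%). No stretch of 100 bases, the length of 1 read, was shared exactly between any 2 of the 13 immunoglobulin constant genes, although how the authors treated reads that map to several places was not given.

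The last 100 bases of a pair of V segments follow, one seen in a single tumor and one seen in most, with capitals at the bases that encode the Tyr-Tyr-Cys end of the framework, just before the junction where a V segment is joined:
Igkv2-112: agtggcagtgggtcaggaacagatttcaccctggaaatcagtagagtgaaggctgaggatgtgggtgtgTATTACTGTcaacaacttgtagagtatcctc
Ighv6-3: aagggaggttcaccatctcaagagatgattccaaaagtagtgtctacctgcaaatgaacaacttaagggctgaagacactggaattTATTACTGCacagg
Igkv2-112, a kappa segment at chr6:68196965-68197690 (GRCm39, plus strand), had 14 counts, all in liraglutide tumor 3. Ighv6-3, a heavy chain segment at chr12:114355332-114355789 (minus strand), had 23 counts spread over 7 tumors. The capitals, TATTACTGT or TATTACTGC, were searched on the coding strand and were found in the last 100 bases of 132 of the 216 V segments in the table (61.1%).

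Transcripts that mark B cells themselves were near the limit of detection in both groups, and the groups overlapped. Ms4a1 (chr19:11227039-11243605, minus strand, GRCm39) had 1, 0, 1, 9 and 10 counts in vehicle tumors 1 to 5 and 4, 1, 9, 0 and 3 counts in liraglutide tumors 1 to 5. Cd79a (chr7:24596740-24601622, plus strand) had 4, 7, 2, 6 and 3 counts with vehicle and 7, 3, 4, 1 and 2 with liraglutide. Cd79b (chr11:106202167-106205588, minus strand) had 4, 2, 0, 3 and 1 counts with vehicle and 0, 1, 2, 3 and 9 with liraglutide. No tumor was high for all of them: the tumors with the most counts were vehicle 5 for Ms4a1, vehicle 2 and liraglutide 1 for Cd79a, and liraglutide 5 for Cd79b.

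**Figure D1:**
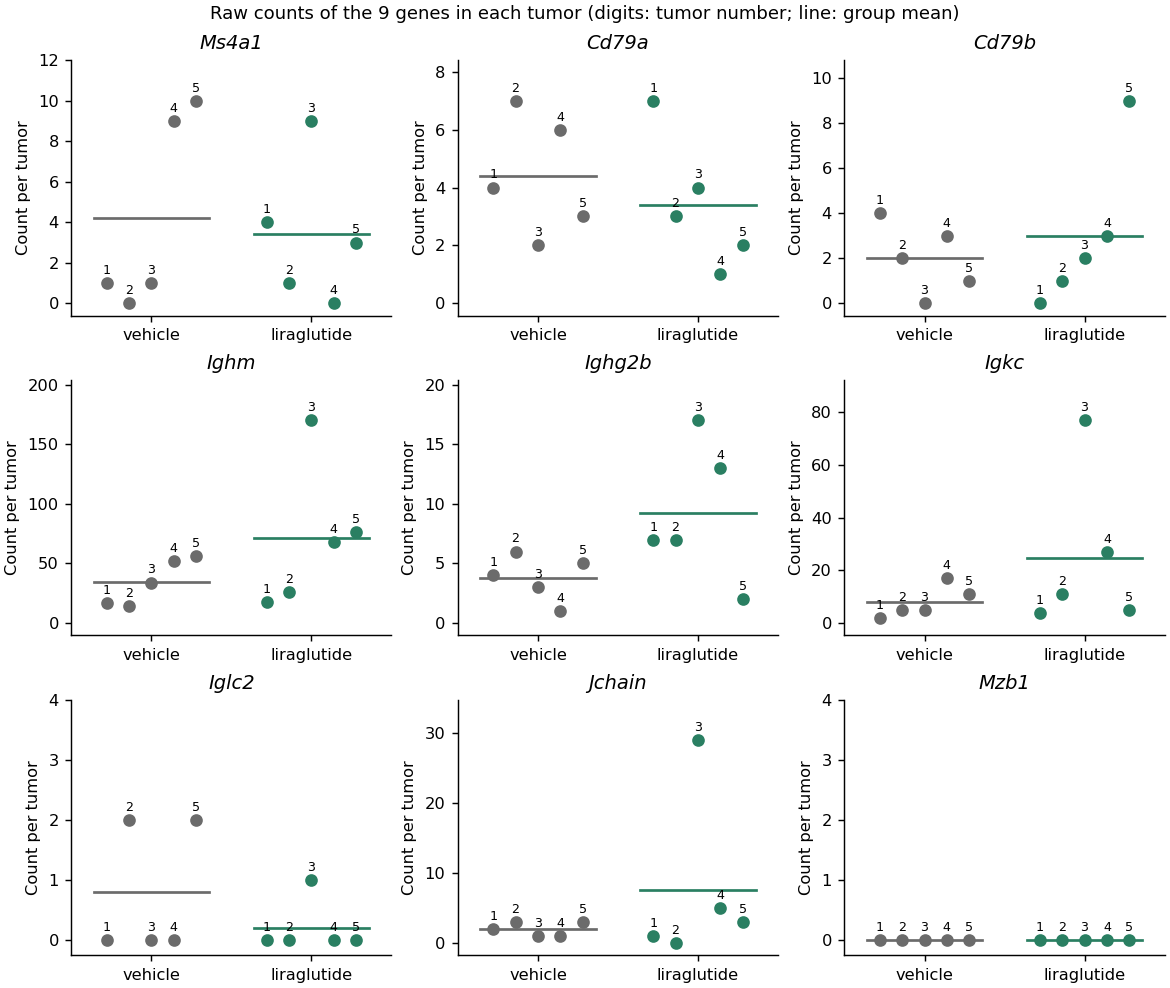
Raw counts of the 9 genes in each of the 10 tumors (y axis, counts per tumor, with its own scale for each gene), by treatment (x axis); each point is 1 tumor with its number, and the line is the group mean. Liraglutide tumor 3 stands at the top for Ighm (170), Ighg2b (17), Igkc (77) and Jchain (29) but not for Cd79a or Cd79b, and Mzb1 is at 0 throughout.

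Group totals were 21 counts with vehicle and 17 with liraglutide for Ms4a1, 22 and 17 for Cd79a, and 10 and 15 for Cd79b. These 3 genes did not pass the low-count filter, and in a fit of all 35141 genes with a count their log2 fold changes (liraglutide over vehicle) were -0.36 (SE 0.90, adjusted p = 0.905), -0.45 (SE 0.59, adjusted p = 0.799) and 0.50 (SE 0.86, adjusted p = 0.853). The sign rested on single tumors for 2 of them: Ms4a1 was at 0.10 without vehicle tumor 4 and 0.21 without vehicle tumor 5, and Cd79b was at -0.36 without liraglutide tumor 5. With errors of this size, small changes in these 3 genes could not be detected, and a change larger than 1 such error could also be missed. The smallest detectable change was not tested. In a whole-tumor fragment, fewer cells of a type and less RNA per cell cannot be told apart.

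The constant gene of IgM was the most abundant of the 9 by counts, and its highest values were in liraglutide tumors. Ighm (chr12:113382178-113386350, minus strand) had 17, 14, 34, 52 and 56 counts in vehicle tumors 1 to 5 and 18, 26, 170, 68 and 76 counts in liraglutide tumors 1 to 5. Liraglutide tumors 3, 4 and 5 lay above every vehicle tumor, and liraglutide tumors 1 and 2 lay among the lower vehicle tumors. The mean was 3.01 ± 1.61 CPM with vehicle and 5.71 ± 4.52 CPM with liraglutide (SD, n = 5 each), a log2 fold change of 0.93 (SE 0.58) that did not pass the test (edgeR quasi-likelihood test, Benjamini-Hochberg adjusted p = 0.607). Without liraglutide tumor 3, the liraglutide mean was 3.93 ± 2.45 CPM and the log2 fold change 0.39.

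Ighg2b, the constant gene of IgG2b (chr12:113266585-113271553, minus strand), had 4, 6, 3, 1 and 5 counts with vehicle and 7, 7, 17, 13 and 2 with liraglutide. In CPM, liraglutide tumors 3 and 4 were above all vehicle tumors, liraglutide tumor 5 was below all but 1 of them, and the groups overlapped. The means were 0.337 ± 0.191 and 0.766 ± 0.481 CPM, with a log2 fold change of 1.18 (SE 0.59, adjusted p = 0.620 in the fit of all detected genes) and of 0.90 without liraglutide tumor 3.

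Among the light chains, nearly all counts were kappa. Igkc (chr6:70703419-70703950, plus strand) had 2, 5, 5, 17 and 11 counts with vehicle and 4, 11, 77, 27 and 5 with liraglutide. Liraglutide tumors 3 and 4 stood above all vehicle tumors, and liraglutide tumors 1 and 5 stood among the lowest of all. Means were 0.696 ± 0.484 CPM and 2.00 ± 2.32 CPM, and the log2 fold change of 1.51 (SE 0.81) did not pass the test (adjusted p = 0.565). It was 0.55 without liraglutide tumor 3, whose 5.82 CPM was the highest value. In GENCODE M39, 97.9% of the exonic bases of Igkc are overlapped on the other strand by the gene Gm68839, and since the strand setting of the counting was not given, reads of the 2 could not be separated.

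Iglc2 (chr16:19017146-19019101, minus strand), a lambda constant gene, had 2 counts in vehicle tumor 2, 2 in vehicle tumor 5, 1 in liraglutide tumor 3 and 0 in the other 7 tumors. With so few counts no fold change is given. Over Iglc1, Iglc2 and Iglc3, lambda summed to 15 counts, 8 of them in liraglutide tumor 3, against 164 counts of Igkc. Iglc4 had 0 counts.

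Of the genes of antibody-secreting cells, Jchain was seen mainly in 1 tumor and Mzb1 in none. Jchain (chr5:88667668-88675750, minus strand) had 2, 3, 1, 1 and 3 counts with vehicle and 1, 0, 29, 5 and 3 with liraglutide. The 29 counts of liraglutide tumor 3 were 2.19 CPM, against 0.471 CPM in the next tumor, and the other liraglutide tumors ranged around the vehicle values. Means were 0.175 ± 0.0947 and 0.594 ± 0.911 CPM, with a log2 fold change of 1.75 (SE 0.93, adjusted p = 0.620 in the fit of all detected genes), which was 0.14 without liraglutide tumor 3. Mzb1, on chromosome 18, had 0 counts in all 10 tumors, which allows up to 0.207 to 0.314 CPM depending on the tumor (3 counts, counting error only). The M39 model of Mzb1 shares 48.3% of its exonic bases with Gm50318 on the same strand, a gene that also had 0 counts here, so reads falling in the shared bases may not have been assigned to either.

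Taking the tested genes, both Ighm and Igkc had a positive log2 fold change, as did 47.4% of all tested genes, and neither had an adjusted p under 0.05, where the background was 0%. Neither had an unadjusted p under 0.05, against 9.59% of all tested genes (3.97% higher and 5.62% lower with liraglutide). The groups overlapped in CPM for each of the 9 genes, while 1.48% of tested genes had groups that did not overlap. With only 2 genes tested, these shares say little about the list.

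**Figure D2:**
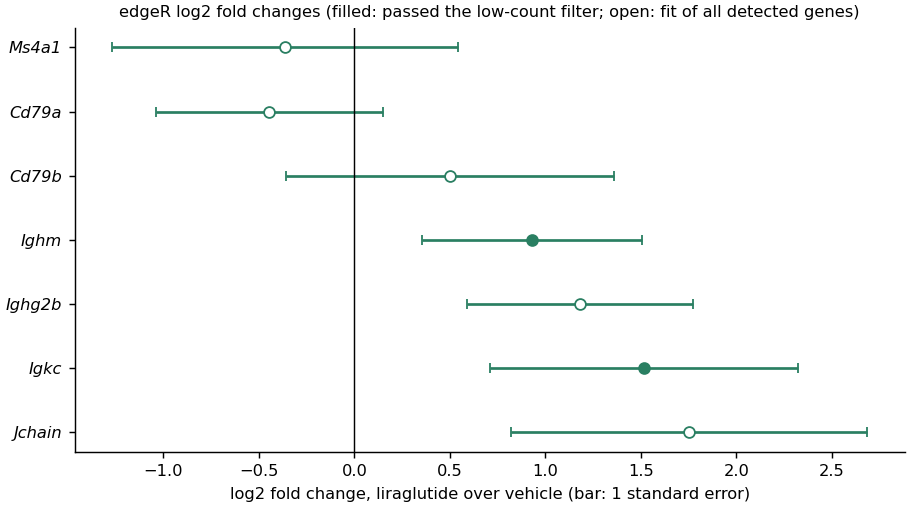
Log2 fold change of liraglutide over vehicle (x axis) for the 7 genes with enough counts to give one (y axis), with 1 standard error as the bar; filled points passed the low-count filter and open points come from the fit of all detected genes. Ighm, Ighg2b, Igkc and Jchain lie at 0.93 to 1.75 with SEs of 0.58 to 0.93, and the B cell membrane genes lie at -0.45 to 0.50.

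Per kilobase of M39 exon, the mean levels over the 10 tumors fell into an upper pair and a lower group. Igkc was at 2.53 CPM per kb and Ighm at 2.31, and by medians their order turned, at 1.33 for Igkc and 2.09 for Ighm. Cd79a was at 0.219 CPM per kb, Ighg2b at 0.206, Jchain at 0.153, Cd79b at 0.139, Iglc2 at 0.0719 and Ms4a1 at 0.0495. Neighbours within the lower group rested on few counts per tumor and could not be ordered beyond their spread. The immunoglobulin genes Igkc and Ighm were thus the only ones of the 9 above 1 CPM per kb in the mean.

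Summing all 13 immunoglobulin constant genes in the table gave a level for the antibody transcripts as a whole. It was 2.14, 3.24, 4.71, 6.26 and 7.23 CPM in vehicle tumors 1 to 5 and 2.67, 4.56, 24.7, 11.9 and 6.75 CPM in liraglutide tumors 1 to 5. Only liraglutide tumors 3 and 4 exceeded the highest vehicle tumor. The liraglutide mean was 2.15 times the vehicle mean, and 1.37 times without liraglutide tumor 3, which held 36.2% of all 903 counts on these genes. In the median tumor the 13 genes took 0.000548% of the library.

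IgM made up most of the heavy chain counts in every tumor, from 57.8% to 89.7%. In liraglutide tumor 3 the heavy chains were 70.3% Ighm (exact binomial 95% interval 64.1 to 75.9%), 19.4% Igha (14.6 to 25.0%) and 10.3% IgG genes (6.80 to 14.9%), and 90.6% of its light chain counts were kappa (82.3 to 95.9%). These intervals cover counting error only. Igha had 5, 1, 3, 5 and 6 counts with vehicle and 2, 10, 47, 15 and 3 with liraglutide, so its high tumors were again liraglutide 3 and 4. The rarer classes Ighg2c (16 counts), Ighd (9), Ighg1 (3) and Ighg3 (3) were too few to compare, and Ighe had 0 counts. The ratio of light to heavy chain counts ran from 0.0581 in liraglutide tumor 5, where it rests on 5 light chain counts beside 76 of Ighm, to 0.351 in liraglutide tumor 3, with 0.107 to 0.333 in the other tumors. These counts were not scaled by length, and Igkc has 532 exonic bases against 1886 for Ighm. The ratio therefore does not give relative transcript numbers.

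**Figure D3:**
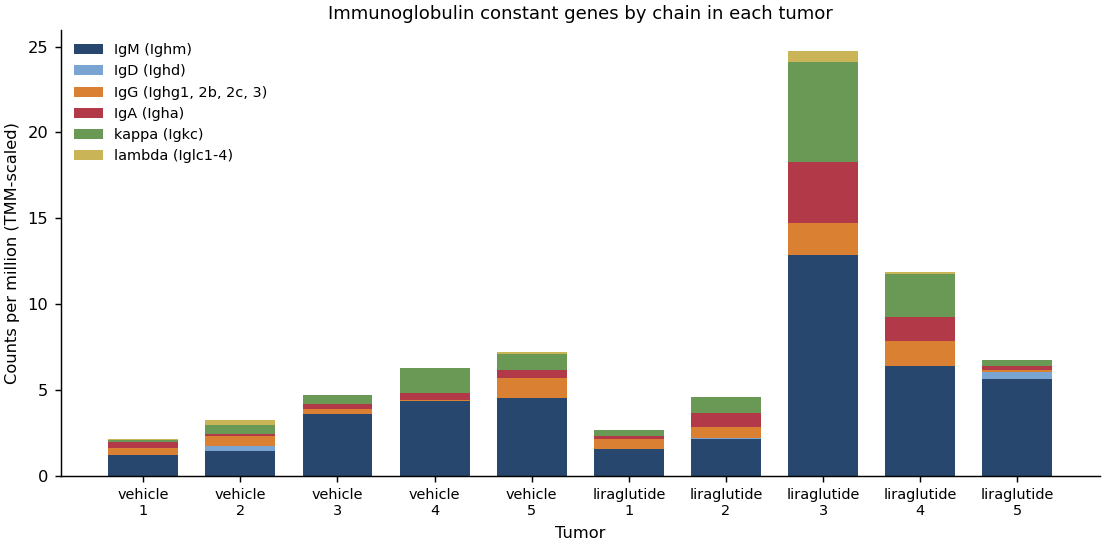
Summed level of the immunoglobulin constant genes (y axis, TMM-scaled CPM) in each of the 10 tumors (x axis), stacked by chain; each bar is 1 tumor. Liraglutide tumor 3 reaches 24.7 CPM and liraglutide tumor 4 reaches 11.9, the other 8 lie between 2.14 and 7.23, and IgM is the largest heavy chain layer in every bar.

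V segments give a coarse view of how many different antibodies were read. Of 216 annotated V segments in the table, 70 had a count, 245 counts in all. There were 16, 6, 4, 18 and 18 V counts in vehicle tumors 1 to 5, on 8, 4, 4, 12 and 10 segments. In liraglutide tumors 1 to 5 there were 4, 11, 108, 42 and 18 V counts, on 4, 7, 43, 18 and 10 segments. Tumors with more V counts thus had more segments, and in liraglutide tumor 3 the counts were spread over 43 segments, 21 of which were seen in no other tumor.

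The leading segment of liraglutide tumor 3, Igkv2-112, took 14 of its 108 V counts (exact interval of the share 7.27 to 20.8%). In liraglutide tumor 4 the leading segment was Ighv7-1 with 6 counts, and in liraglutide tumor 5 it was Ighv6-4 with 6. Vehicle tumor 4 and liraglutide tumor 2 were led by Ighv6-3 with 3 and 4 counts, vehicle tumor 1 by Igkv14-126 with 4, and vehicle tumor 5 by Ighv9-3 with 4. In the remaining tumors several segments were tied at 1 or 2 counts. Assignment to single segments is uncertain, because 23 of the 70 detected segments share a stretch of 100 bases with another V segment, though Igkv2-112 and Ighv6-3 do not.

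**Figure D4:**
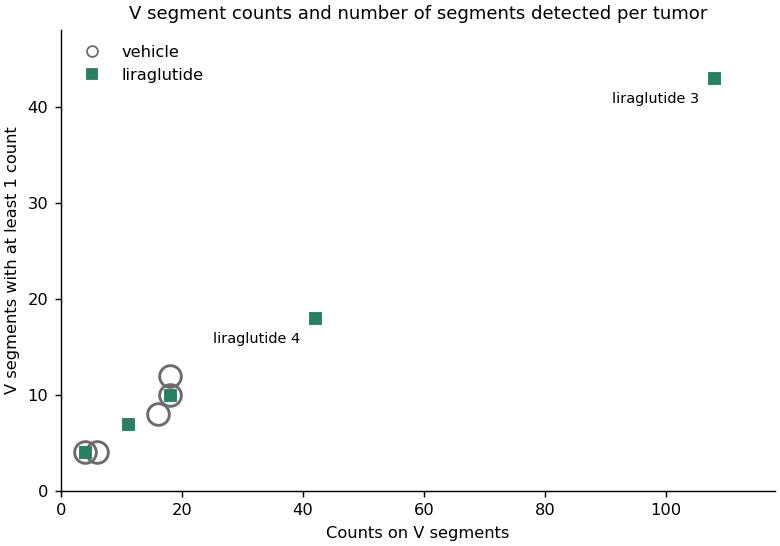
Number of V segments with at least 1 count (y axis) against counts on all V segments (x axis), with 1 marker per tumor (open circles, vehicle; filled squares, liraglutide; a square inside a circle is a vehicle and a liraglutide tumor with the same values). Liraglutide tumor 3 has 108 counts on 43 segments and liraglutide tumor 4 has 42 on 18, and the other tumors have 4 to 18 counts on 4 to 12 segments.

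Other genes of the lineage were read from gene lists. Of 22 genes of B cell identity and B cell receptor signaling other than the 9, 21 had a count and 11 were tested, 8 with a higher and 3 with a lower value in liraglutide tumors, none at an unadjusted p under 0.05 (median log2 fold change 0.32, against -0.02 over all tested genes). Those with the most counts are not restricted to B cells: Ebf1, which also acts in adipocyte and stromal cells, was at 18.2 ± 3.18 CPM with vehicle and 19.3 ± 2.78 with liraglutide, and Cd180, a receptor also found on macrophages, at 5.56 ± 3.35 and 5.75 ± 2.12. Btk, the kinase downstream of the B cell receptor and also of myeloid receptors, was at 2.83 ± 0.883 and 3.53 ± 0.895 CPM.

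The B cell genes Ms4a1, Cd79a and Cd79b together had 53 counts in the vehicle and 49 in the liraglutide group. The T cell genes Cd3d, Cd3e, Cd3g and Trac had 329 and 592. In liraglutide tumor 3, which led for immunoglobulins, the same B cell genes summed to 15 counts, against 18 in vehicle tumor 4 and 14 in vehicle tumor 5. Of the 21 other B lineage genes with a count, 5 had their highest CPM in that tumor (Cd22, Ebf1, Blnk, Cd72 and Pou2f2), all among the 11 tested, and 8.96% of all tested genes had theirs there.

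Of 16 genes of plasma cells and antibody secretion, 13 were tested, 9 higher and 4 lower (median log2 fold change 0.16). At an unadjusted p under 0.05, Txndc5, a disulfide isomerase, was higher (log2 fold change 0.26) and Fkbp11, a prolyl isomerase of the secretory pathway, was lower (-0.33), and neither passed adjustment (adjusted p = 0.515 for both). The abundant members are also made by epithelial and other secretory cells: Sdc1, the syndecan used as a plasma cell surface marker, was at 612 ± 128 and 728 ± 67.6 CPM, and Xbp1, the secretory stress factor, at 98.9 ± 10.8 and 100.5 ± 12.96 CPM. Tnfrsf17, the plasma cell receptor BCMA, had 0 counts in all vehicle tumors and 0, 1, 4, 2 and 0 in liraglutide tumors 1 to 5. Of the 16 genes, 4 had their highest CPM in liraglutide tumor 3 (Tnfrsf17, Ell2, Slamf7 and Edem2). Of the 13 tested genes 3 did (23.1%), against 8.96% of all tested genes. Derl3, of the degradation machinery of the endoplasmic reticulum, had most counts in vehicle tumors 5 and 4 (131 and 82, against 49 in liraglutide tumor 3).

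No factor that recruits or sustains B cells passed the adjusted test. Of 10 listed genes 9 had a count and 2 were tested, Tnfsf13b, which encodes the survival factor BAFF (2.32 ± 0.697 and 2.97 ± 1.34 CPM), and the chemokine gene Cxcl12 (10.5 ± 5.56 and 11.9 ± 3.73 CPM), with adjusted p of 0.734 and 0.873. Il6, a cytokine that supports plasma cells among many other roles, had 15, 39, 17, 9 and 10 counts with vehicle and 4, 7, 7, 6 and 9 with liraglutide. In CPM all liraglutide tumors were below all vehicle tumors (1.66 ± 1.34 and 0.535 ± 0.118 CPM), with a log2 fold change of -1.59 (SE 0.49, adjusted p = 0.620 in the fit of all detected genes). Il6 was the only gene of the 15 lists whose groups did not overlap. It was not among the tested genes, of which 1.48% had groups that did not overlap. For lists of this length, a single gene is not above that share. The follicle chemokine Cxcl13 had 27 counts in liraglutide tumor 3 and between 1 and 9 in each other tumor. Among 10 receptors for immunoglobulin 7 were tested, 6 higher and 1 lower, none at an unadjusted p under 0.05. The inhibitory IgG receptor Fcgr2b, the most abundant of these, was at 52.7 ± 9.94 and 52.2 ± 8.98 CPM. Of 6 precursor B cell genes 4 were found by symbol, and none was tested, with Rag2 reaching 9 counts in vehicle tumor 4.

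The tumors with more immunoglobulin also tended to hold more T cell transcripts. The summed level of 12 T cell markers was 11.0, 13.1, 16.0, 27.1 and 37.4 CPM in vehicle tumors 1 to 5 and 13.4, 26.0, 51.4, 34.8 and 38.2 CPM in liraglutide tumors 1 to 5, and it put liraglutide tumor 3 highest and vehicle tumor 1 lowest, as the immunoglobulin sum did. Of the 12 markers, 11 had a higher and 1 a lower value with liraglutide (median log2 fold change 0.71), and none had an unadjusted p under 0.05. Ptprc, the pan-leukocyte gene for CD45, was at 35.5, 31.6, 40.8, 76.7 and 70.3 CPM with vehicle and 37.1, 42.2, 70.3, 74.6 and 70.8 CPM with liraglutide. For Ptprc, liraglutide tumor 3 was not the highest, at the same level as vehicle tumor 5, where the immunoglobulin sum was 7.23 CPM against 24.7. Liraglutide tumor 3 was the highest of all tumors for 10 of the 12 T cell markers, 2 of 7 pan-leukocyte genes (Laptm5 and Rac2) and 7 of 8 macrophage markers. All of these were tested, and 8.96% of all tested genes were highest in that tumor. Of 7 pan-leukocyte genes 5 were higher and 2 lower, and of 8 macrophage markers 7 were higher and 1 lower, none at an unadjusted p under 0.05, with macrophage sums of 607 to 1150 CPM in vehicle and 648 to 838 CPM in liraglutide tumors. Mrc1, the lower one, made up much of these sums (536 ± 253 and 321 ± 96.6 CPM, log2 fold change -0.74). The part of leukocyte content in the immunoglobulin values was not tested.

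**Figure D5:**
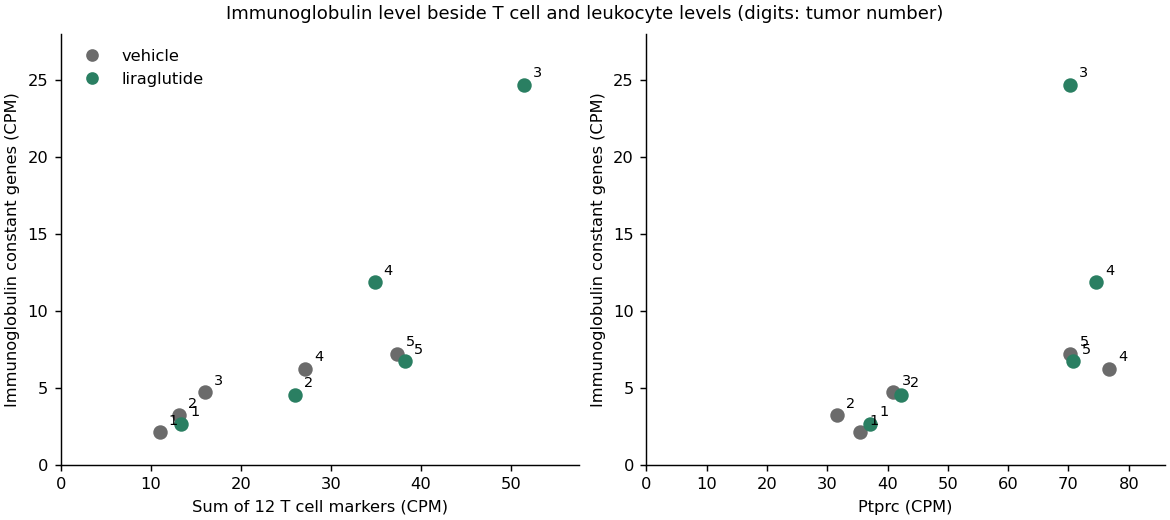
Summed level of the immunoglobulin constant genes (y axis, CPM) against the summed T cell markers (left, x axis, CPM) and against Ptprc (right, x axis, CPM), with 1 point per tumor, numbered and colored by treatment. Liraglutide tumor 3 is highest on the T cell axis (51.4 CPM) and on the immunoglobulin axis (24.7 CPM), and in Ptprc it lies at 70.3 CPM among 5 tumors between 70.3 and 76.7.

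Markers of other tissue that a fragment could carry were read as well. Of 10 plasmacytoid dendritic cell markers, a cell type that also carries Jchain and Mzb1, 4 were tested, 2 higher and 2 lower, none at an unadjusted p under 0.05, with sums of 175 to 254 CPM with vehicle and 186 to 258 with liraglutide. Most of these sums was Tcf4 (113 ± 26.8 and 118.5 ± 17.3 CPM) and Runx2 (89.5 ± 10.8 and 85.7 ± 12.7 CPM), which many cell types express. The defining plasmacytoid gene Siglech had 8 counts in liraglutide tumor 3 and 7 in liraglutide tumor 1, where Jchain had 29 and 1. Of 8 lymph node markers, Ccl19 and Chst4 had 0 counts in all tumors, Glycam1 had 0 to 2, Madcam1 0 or 1, Ccl21a 1 to 11, Fcer2a 9 to 29 and Cr2 11 to 49, and 3 of the 8 were tested, none at an unadjusted p under 0.05, and the sum of that list was mostly Clca3a1 (65.1 ± 22.2 CPM with vehicle and 73.2 ± 45.0 with liraglutide). Keratinocyte markers were higher at an unadjusted p under 0.05 for 3 of 4 tested genes, against 3.97% of all tested genes. Their sums were 8.33 to 18.4 CPM in vehicle and 6.81 to 214 CPM in liraglutide tumors, and liraglutide tumor 3 was at 6.88. Muscle markers, at 37.4 to 249 CPM and 83.0 to 338 CPM, had 1 of 6 tested genes higher at an unadjusted p under 0.05, against the same 3.97%. Of the adipocyte markers 3 were tested, all lower and none at an unadjusted p under 0.05, with sums of 15.2 to 84.1 CPM and 18.6 to 48.2 CPM. The part of these tissues in the immunoglobulin values was not tested.

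Across the 10 tumors, Ighm and Igkc had the closest relation among the genes (log2 CPM, Pearson r = 0.812, permutation p = 0.0038, Spearman rho = 0.733, permutation p = 0.0205). Over the 28 pairs compared, none passed Benjamini-Hochberg adjustment (adjusted p = 0.106 and 0.575 for this pair). Leaving out the 2 tumors farthest from the median of Ighm gave r = 0.532, and subtracting the group means gave r = 0.785. The relation of Igkc and Jchain (r = 0.709, permutation p = 0.0275, adjusted p = 0.257; rho = 0.297, permutation p = 0.410, adjusted p = 0.801) rested on liraglutide tumors 3 and 4, without which r was -0.253. The tested genes whose log2 CPM followed Igkc most closely over the 10 tumors, outside the lists and the immunoglobulin segments, were Tmem160 (r = 0.892), Pkib (0.891), Cd200r1 (0.890), Bbs10 (0.889) and the long noncoding gene Gm44836 (0.882), given as the highest of all tested genes and without a test. For Cd79a they were Lnpep (r = 0.918), Trappc2b (0.897), 9430091E24Rik (0.887), Pja2 (0.878) and Gm45186 (0.875), where the Cd79a values rest on 1 to 7 counts per tumor.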

How the data were processed

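Per the study's methods, the authors aligned 100-base read pairs with Bowtie and TopHat on GRCm39, and featureCounts gave the deposited raw counts per gene, after samples were left out at quality assessment. The labels' processing notes also list mm10 and GRCh38. The annotation release, strand setting and handling of reads with several hits were not given in the sources used here. Groups and tumor numbers came from the sample titles. Because the labels do not say that each tumor came from its own mouse, p-values measure only the spread between these samples. Of the identifiers, 51731 (93.38%) matched GENCODE M39 without their version.

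Counts were filtered with filterByExpr, TMM-scaled and tested with edgeR 4.0.16 (quasi-likelihood, treatment as the single factor, R 4.3.3), with Benjamini-Hochberg adjustment over all tested genes. Genes under the filter took values from a fit of all genes with a count. The alternatives were DESeq2 1.42.0, limma-voom (limma 3.58.1), other scalings and filters, a replicate block, robust empirical Bayes and each tumor left out. The fit was tested on simulated data. Genes named outside the 9 were those of 15 lists at an unadjusted p under 0.05 or among the 3 most abundant of a list, the 5 most like Cd79a and Igkc, and the leading V segment of each tumor. Those printed are a selection, and Tnfrsf17, Derl3, Ell2, Slamf7, Edem2, Cd22, Blnk, Cd72, Pou2f2, Laptm5, Rac2, Glycam1, Madcam1, Ccl21a, Pax5, Bcl11a, Cxcl13, Rag2, Siglech, Ccl19, Chst4, Ptprc, Nkx2-1, Krt8, Epcam, Sftpb and Sftpc, with the other constant genes and the summed core markers, were added after seeing values. The 9 genes and the lists were chosen with earlier results of these data known. Some genes of the lists are not reported here. Depth limits single tumors to about 3 counts.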

Additional observations from a re-analysis of the deposited data

Results flagged for a closer look

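Among the 20 groups of 5 tumors checked for a single tumor far from the rest, 2 were marked, both for liraglutide tumor 3 and both by its being the highest of its group. Chance marks about 1 in 20 groups of evenly measured values, and its rate for counts as low as these was not tested. Jchain was at 2.19 CPM in that tumor (29 counts), with the next liraglutide tumor at 0.471 CPM. Iglc2 was at 0.0756 CPM there, which is 1 count against 0 in the other 4 liraglutide tumors, and this carries no more weight than a single read. The same tumor had the most counts of Ighm, Ighg2b and Igkc, whose gaps to the next tumor were not far enough to be marked.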

How the results depend on the processing

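None of the 7 genes with a fold change was called under the alternatives that gave an adjusted p (lowest 0.278), with those under the filter read from fits of all detected genes. DESeq2 with default filtering gave none of the 7 an adjusted p, and no set of alternatives was compared for Iglc2 and Mzb1. Of 135 alternative values of the 7 genes' log2 fold changes, 132 kept their direction. The 3 that turned were Ms4a1 without vehicle tumor 4 (0.10) and without vehicle tumor 5 (0.21) and Cd79b without liraglutide tumor 5 (-0.36). Leaving out 1 tumor at a time gave 0.39 to 1.17 for Ighm, 0.55 to 1.97 for Igkc, 0.14 to 2.07 for Jchain, 0.90 to 1.48 for Ighg2b, -0.90 to -0.13 for Cd79a, -0.36 to 0.81 for Cd79b and -1.05 to 0.21 for Ms4a1, with the low end of the first 4 set by liraglutide tumor 3. The other alternatives gave 0.76 to 0.98 for Ighm, 1.01 to 1.56 for Igkc, 0.98 to 1.23 for Ighg2b and 0.46 to 1.79 for Jchain, where limma-voom gave the low end of 0.46 and the replicate block 0.98. The ratio of summed immunoglobulin CPM was 1.37 to 2.54 in the same way. The correlation of Igkc and Jchain turned to -0.253 without the 2 tumors farthest from the median. Correlations without liraglutide tumor 3, chosen after seeing the data, were 0.670 for Ighm and Igkc and 0.278 for Igkc and Jchain.

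Over all genes, DESeq2 called 40 without and 56 with independent filtering, against 0 for edgeR; the cause was not tested. Of Ighm and Igkc, 0 had an unadjusted p under 0.05, and 0 to 1 did with 1 tumor left out. In fits of all detected genes, Ighg2b was under 0.05 without vehicle tumor 2 or liraglutide tumor 5, and Jchain without liraglutide tumor 1 or 2. Nothing in the labels ties tumors of the same number, and same-numbered tumors correlated over 0.1 in only 3 of 5 pairs (mean 0.26, against -0.07 for other pairs). With the number as a replicate block, Ighm was at 0.76 (adjusted p = 0.278), which made 1 of the 2 at an unadjusted p under 0.05, as were 2585 of all 17464 tested genes, and 0 genes were called. Few counts per tumor limit every value except those of Ighm and, in part, Igkc.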

Other observations

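Pax5, the transcription factor that keeps B cell identity, had 46 counts in vehicle tumor 5 and 0 to 8 in each of the other 9 tumors, a value singled out after it was seen. The same tumor had 3 counts of Cd79a and 10 of Ms4a1. Bcl11a, another transcription factor of the B lineage list, was also highest there, with 13 counts against 0 to 8 elsewhere. The 130 annotated V pseudogenes in the table together had 11 counts, against 245 on V segments.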
